A study of Homo sapiens with 8 samples.

Results

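The genes of the EGF receptor family and its ligands were examined by H3K27ac ChIP-seq in HCEC-1CT, an immortalised human colonic epithelial cell line. The members were the receptors EGFR, ERBB2 and ERBB3 and the ligands EGF, AREG, EREG, EPGN, BTC, TGFA and HBEGF, 10 genes at 7 loci. They were listed by name, with earlier results of these data known. Every peak that touched a member's gene body or the 30 kb on either side of it (hg38, GENCODE release 44) was taken, whatever its value. EPGN, EREG, AREG and BTC, which neighbour each other on chromosome 4, were treated as a single locus. Peaks that overlapped or touched were merged over the 6 libraries, and 128 of the 143733 merged intervals of the genome lay at these loci. The WT group was the parental Cas9-expressing line, with Cas9 under a doxycycline-inducible promoter, and the CREBBP-KO group was the same line edited in CREBBP, the gene of the acetyltransferase CBP. Both groups, 3 libraries each, were grown in medium with 20 nM hEGF, insulin and hydrocortisone, so a ligand of EGFR was present in every culture. The study calls the knockout lines monoclonal and elsewhere says that clones were pooled for each target. The series' design text says that chromatin came from 3 separate populations of each cell type, without saying how the populations were derived, and p-values measure the spread between those populations. The edit itself cannot be read from peak lists, and the 2 input libraries were not analysed here.

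EGFR family receptors sit in the plasma membrane and dimerise when a ligand binds. The ligands are made as membrane proteins and are released by sheddases. EGF, TGFA, AREG and EPGN bind EGFR, whereas BTC, EREG and HBEGF bind EGFR and a further family member, ERBB4. ERBB2 has no known ligand of its own and acts as a partner of the other receptors, and ERBB3 has little kinase activity and binds neuregulins. H3K27ac, acetylation of lysine 27 of histone H3, marks active promoters and enhancers and is deposited mainly by CBP and its paralogue p300, which CREBBP and EP300 encode. In intestinal epithelium EGFR signalling is known for driving growth and repair.

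The 3 WT lists held 86163 to 93567 peaks and the 3 CREBBP-KO lists 99008 to 111697. The files hold no read counts, so the depth of each library is not known here. Peak height is given as fold over the local background of the same library, and as the percentile of that fold within the library's own list. As the CREBBP-KO lists held more weak peaks, the same fold stood higher in them: a fold of 5 was at percentile 57.0 to 58.4 of the WT lists and 60.6 to 63.5 of the CREBBP-KO lists. Tests were therefore run on ranks within 1 common set, the 34864 intervals that had a peak in all 6 libraries and reached a fold of at least 5 in all 3 libraries of a genotype. A rank shift is the difference in normal scores of these ranks, CREBBP-KO minus WT, and adjusted p-values are from limma with Benjamini-Hochberg adjustment over all 34864 intervals. Of 10 epithelial marker genes, 2 (EPCAM and KRT8) had a promoter peak in all 6 libraries and 7, CDH1, CDX1, CDX2, VIL1, CDH17, KRT19 and KRT20, had none in any. All 5 mesenchymal markers (VIM, COL1A1, COL1A2, PDGFRB and DCN) had a promoter peak in all 6 libraries, at percentiles of 90.5 to 99.9, and the 3 immune markers had none. Of the 2 endothelial markers, PECAM1 had a peak in the 3 CREBBP-KO libraries alone, at percentiles of 12.5 to 39.6, and the other had none. Several markers differed with genotype in raw percentile, which runs higher for the same fold in the CREBBP-KO lists. EPCAM stood at percentiles 0.175 to 8.36 in the WT lists and 19.7 to 46.1 in the CREBBP-KO lists, and KRT8 at 32.9 to 57.7 and 59.6 to 73.5. KRT18 overlapped, at 32.9 to 57.7 in the WT lists and 34.6 and 54.2 in the CREBBP-KO lists that had a peak. All CREBBP-KO percentiles were above all WT percentiles for VIM (96.2 to 97.0 against 97.6 to 98.4), COL1A1 (97.6 to 98.9 against 99.8 to 99.9), COL1A2 (97.9 to 98.8 against 99.3 to 99.8) and PDGFRB (93.3 to 95.4 against 95.9 to 98.3), WT first, and overlapped for DCN. The markers were not compared in fold or in ranks of the common set. Small gaps such as that of PDGFRB therefore cannot be told from the difference between the lists. The part of these marker differences in the results was not tested. The defining markers of colonic epithelium were thus largely absent from these lists, in both genotypes, and the cells are named here by their label.

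The sequences below are those on which the account turns, from hg38, with matches to any of 4 motifs in capitals. The motifs were TGANTCA (AP-1), TGACGTCA (CRE, the cAMP response element), GGGCGG (GC box) and GGAATG (TEAD), searched on both strands. Promoters are shown as the 150 bases before the RefSeq start (GRCh38.p14), read 5′ to 3′ on the strand of the gene. RefSeq promoters matched 9 of the 10 members. The EGFR and HBEGF promoters are shown because their H3K27ac ranked higher in CREBBP-KO, the EGF promoter because it had a peak in CREBBP-KO alone, and the AREG promoter because it holds a complete CRE, the site of CREB, the partner after which CBP is named.
EGFR promoter, chr7:55018867-55019016, plus strand: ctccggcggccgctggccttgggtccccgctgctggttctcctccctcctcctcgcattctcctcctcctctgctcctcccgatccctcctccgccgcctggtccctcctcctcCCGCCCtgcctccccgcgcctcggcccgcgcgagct
HBEGF promoter, chr5:140346604-140346753, minus strand: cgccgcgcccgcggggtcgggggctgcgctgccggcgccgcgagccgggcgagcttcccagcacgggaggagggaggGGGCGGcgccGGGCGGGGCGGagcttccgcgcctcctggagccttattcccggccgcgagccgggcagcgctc
EGF promoter, chr4:109912733-109912882, plus strand: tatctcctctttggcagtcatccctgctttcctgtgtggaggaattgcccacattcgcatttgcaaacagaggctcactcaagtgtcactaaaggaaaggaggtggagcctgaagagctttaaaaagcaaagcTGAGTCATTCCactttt
AREG promoter, chr4:74444986-74445135, plus strand: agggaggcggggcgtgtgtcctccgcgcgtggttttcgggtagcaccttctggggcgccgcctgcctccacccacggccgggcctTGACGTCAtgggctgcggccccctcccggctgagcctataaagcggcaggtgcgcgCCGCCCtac
In the EGF promoter the AP-1 and TEAD letters overlap, and in the HBEGF promoter 2 of the 3 GC boxes overlap.

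Outside promoters, 200 bases around the highest summit are shown on the plus strand for the EGFR intron interval that shifted most and for the interval beyond AREG that shifted most in the other direction.
EGFR intron 20, chr7:55186003-55186202: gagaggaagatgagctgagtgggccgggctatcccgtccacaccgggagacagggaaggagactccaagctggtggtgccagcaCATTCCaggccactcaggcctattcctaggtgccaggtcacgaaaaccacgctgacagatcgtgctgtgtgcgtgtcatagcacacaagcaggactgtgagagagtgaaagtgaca
Downstream of AREG, chr4:74473505-74473704: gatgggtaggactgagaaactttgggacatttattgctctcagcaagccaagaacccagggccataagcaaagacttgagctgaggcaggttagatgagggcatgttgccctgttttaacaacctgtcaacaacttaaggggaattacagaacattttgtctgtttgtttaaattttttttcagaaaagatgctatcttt
The EGFR stretch holds a single match to the TEAD letters, and the stretch beyond AREG holds none of the 4 motifs.

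Across the 7 loci, H3K27ac ranked higher in CREBBP-KO at 7 of the 32 tested intervals and lower at 4, and 21 did not pass the test. The intervals that ranked higher were the promoters of EGFR, ERBB2 and HBEGF, the promoters of the ERBB3 neighbours PA2G4 and ESYT1, an EGFR intron and the body of AREG. Those that ranked lower were an upstream start of ERBB2, a pair of intervals in the chromosome 4 cluster and an interval downstream of HBEGF. The EGFR intron interval and the HBEGF promoter passed the fold filter in CREBBP-KO alone, and the chromosome 4 interval beyond EREG in WT alone. For these the filter favoured the direction of the shift. With no fold filter, 6 of 47 member intervals ranked higher and 3 lower, against 12.5% and 12.1% of all intervals tested. Over all 34864 tested intervals 18.6% ranked higher and 18.7% lower, so the member loci stood near the background in number. With a single library left out in turn, 5 to 8 ranked higher and 1 to 5 lower, the lowest count of 1 coming without the third CREBBP-KO library. In 11 of the 32 all 3 CREBBP-KO scores lay above all 3 WT scores and in 6 below, against 24.8% and 23.3% of all tested intervals. The median shift was 0.272 over the 32 and 0.0241 over all tested intervals. It differed by class: off promoters the median was 0.258 for the member intervals and -0.0991 over all, and for all tested gene promoters it was 0.205. All 32 member intervals that passed the fold filter had a peak in all 6 libraries, and the other 96 were weaker or were missing from some libraries, 45 of them being found in a single library. By position, 2 of the 19 tested distal intervals ranked higher and 3 lower, against 14.9% and 23.6% of all tested intervals off promoters. Folds and ranks are relative to each library and do not measure the total amount of the mark. The study reports a moderate drop of H3K27ac in these knockout cells by mass spectrometry, of borderline significance. By immunofluorescence its drop was significant but minimal in size. By ChIP-seq the study found nearly all H3K27ac peaks unaffected without CREBBP, and placed the differences mainly among weak peaks. That was a DiffBind test with a minimum fold change and a far stricter FDR. The rank test here sets no minimum shift, so its shares cannot be compared with that result. In a bulk ChIP library, a higher fold from more H3K27ac per cell and one from more cells with the modification cannot be told apart.

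**Figure D1:**
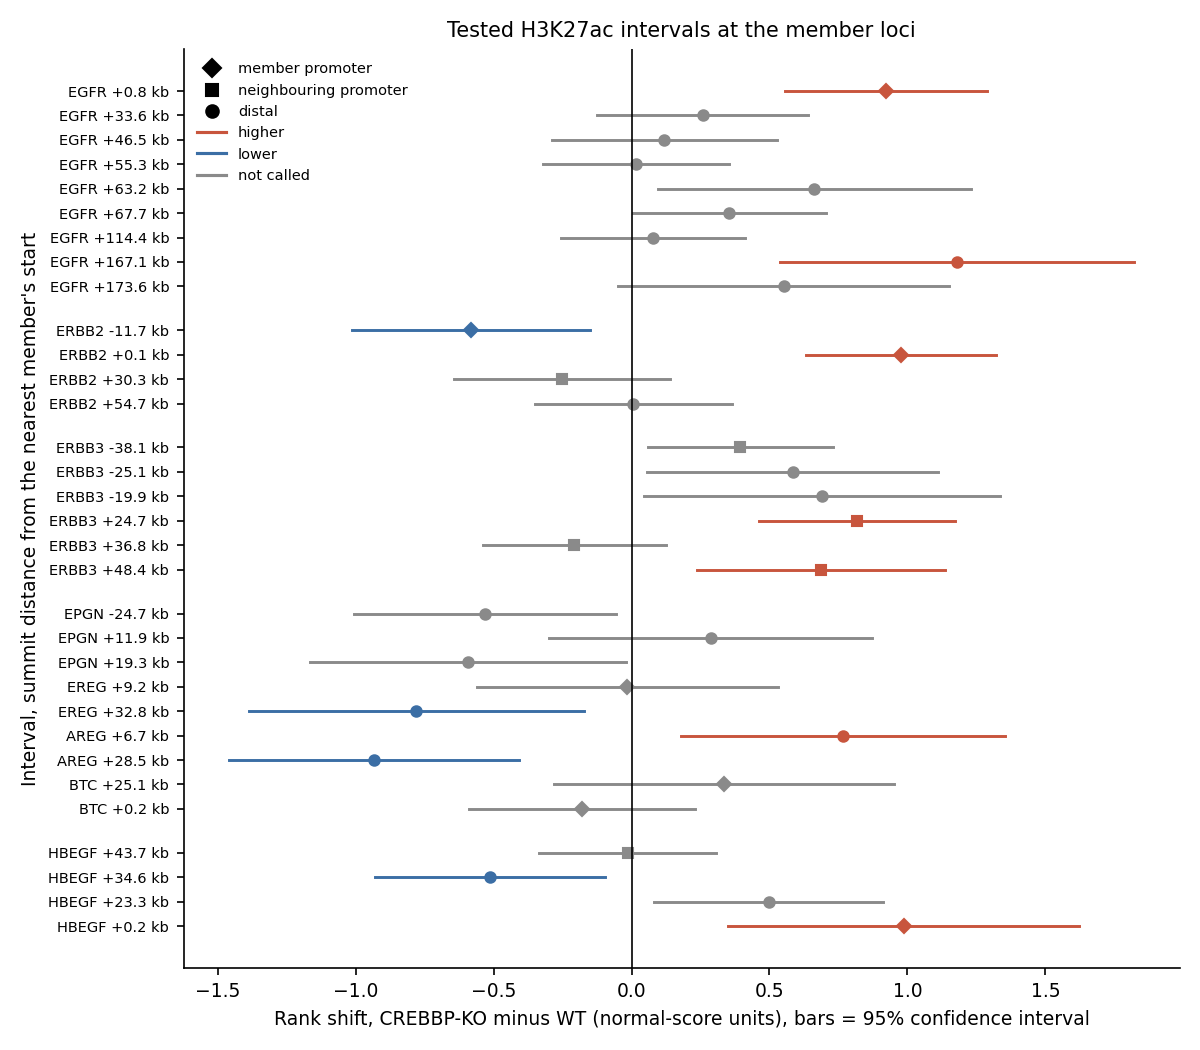
Rank shift of each of the 32 tested intervals, CREBBP-KO minus WT, in normal-score units (x axis), by locus and by distance of the summit from the start of the nearest member along that gene's strand (y axis); bars are 95% confidence intervals, diamonds member promoters, squares neighbouring promoters and circles distal intervals. Red intervals (7) ranked higher, blue (4) lower, and grey intervals (21) did not pass the test.

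The EGFR promoter had a higher H3K27ac fold and a higher rank in CREBBP-KO. Its interval, chr7:55018159-55027841, spans exon 1 and the start of intron 1 of EGFR (ENSG00000146648.21, chr7:55019017-55211628, plus strand). The fold was 10.2, 9.72 and 8.37 in the WT libraries and 16.5, 19.3 and 16.0 in the CREBBP-KO libraries. The groups did not overlap: the lowest CREBBP-KO library lay well above the highest WT library. As percentiles the promoter moved from 81.8 ± 3.75 (SD, n = 3) to 94.8 ± 1.70 (SD, n = 3). The rank shift was 0.922 ± 0.177 (SE; adjusted p = 0.000449), and it was past the threshold in all 14 alternatives, at 0.536 to 0.998. In the third WT library the summit of this peak lay more than 1 kb from the start, within the same interval.

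The highest acetylation of the EGFR locus was not at the promoter but within intron 1, and it did not pass the test. The interval chr7:55068361-55077738, with its summit 55.3 kb inside the gene, had a fold of 20.5, 17.3 and 20.1 in WT and 22.4, 21.1 and 23.7 in CREBBP-KO. It stood between percentiles 96.7 and 98.3 in every library, with a shift of 0.0165 (95% confidence interval -0.319 to 0.352; adjusted p = 0.947). Neighbouring intron 1 intervals with summits 46.5, 67.7 and 114.4 kb from the start were also at percentiles of at least 90.1 in all 6 libraries, with shifts of 0.118, 0.354 and 0.0777 that did not pass the test. At 33.6 kb inside the gene the WT percentiles were 80.4 to 84.9 and the CREBBP-KO percentiles 87.0 to 90.7 (shift 0.258, adjusted p = 0.280). The smaller interval at 63.2 kb lay at percentiles of 56.8 to 61.8 in the WT lists and 71.5 to 76.4 in the CREBBP-KO lists, without overlap, but its shift of 0.663 missed the threshold (adjusted p = 0.0602). In 5 of the 9 tested EGFR intervals all CREBBP-KO scores were above all WT scores, and in 0 below. The shares of all tested intervals were 24.8% and 23.3%. Of the 5, those with summits at 63.2, 167.1 and 173.6 kb passed the fold filter in CREBBP-KO alone. For these the filter favoured the direction of the shift.

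The largest shift among all member intervals was in intron 20, near the 3′ end of EGFR. At chr7:55185257-55188258, with its summit 167.1 kb from the start, the fold was 3.82, 3.42 and 3.50 in WT and 7.40, 5.37 and 5.57 in CREBBP-KO. In percentiles this was 41.3, 30.9 and 30.7 against 78.1, 64.8 and 65.2, with no overlap. The shift of 1.18 ± 0.311 (SE) passed the test (adjusted p = 0.00523), but not without the first CREBBP-KO library, the highest of the 3 (shift 0.832, adjusted p = 0.0679). All 3 WT folds were below the filter of 5, so the interval was tested only because CREBBP-KO passed it. The filter therefore favoured a shift in this direction, and the p-value takes no account of that. The next interval, in intron 21 and 173.6 kb from the start, had WT percentiles of 45.7 to 64.5 and CREBBP-KO percentiles of 67.6 to 73.8, a shift of 0.552 that did not pass the test (adjusted p = 0.137). This interval too passed the fold filter in CREBBP-KO alone.

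Of the 53 EGFR intervals, 44 were too weak or too rarely called to be tested. Of these, 26 had a peak in at least 1 CREBBP-KO library and in no WT library, and 3 the reverse. Over all 143733 merged intervals these shares were 28.3% and 15.4%, the CREBBP-KO lists being the longer. At 93.4 and 99.9 kb from the start, in intron 1, a peak was called in all 3 CREBBP-KO libraries (fold 2.81 to 4.16) and in no WT library. By contrast, 23.3 kb upstream of EGFR the interval chr7:54995185-54996310 had a fold of 4.71, 5.28 and 6.15 in WT and 3.39, 2.81 and 3.28 in CREBBP-KO, so here the WT libraries were all higher. At chr7:55108942-55110155, which covers a second annotated EGFR start within intron 1, the fold was 4.00, 3.78 and 3.59 in WT, whereas the first CREBBP-KO library had no peak and the others had peaks of 2.76 and 2.19. Genome-wide, a peak in all 3 CREBBP-KO and no WT library was found at 2.66% of merged intervals and the reverse at 1.08%. At the member loci these counts were 4 and 0 of 128, and 2 of the 4 were these EGFR intervals.

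**Figure D2:**
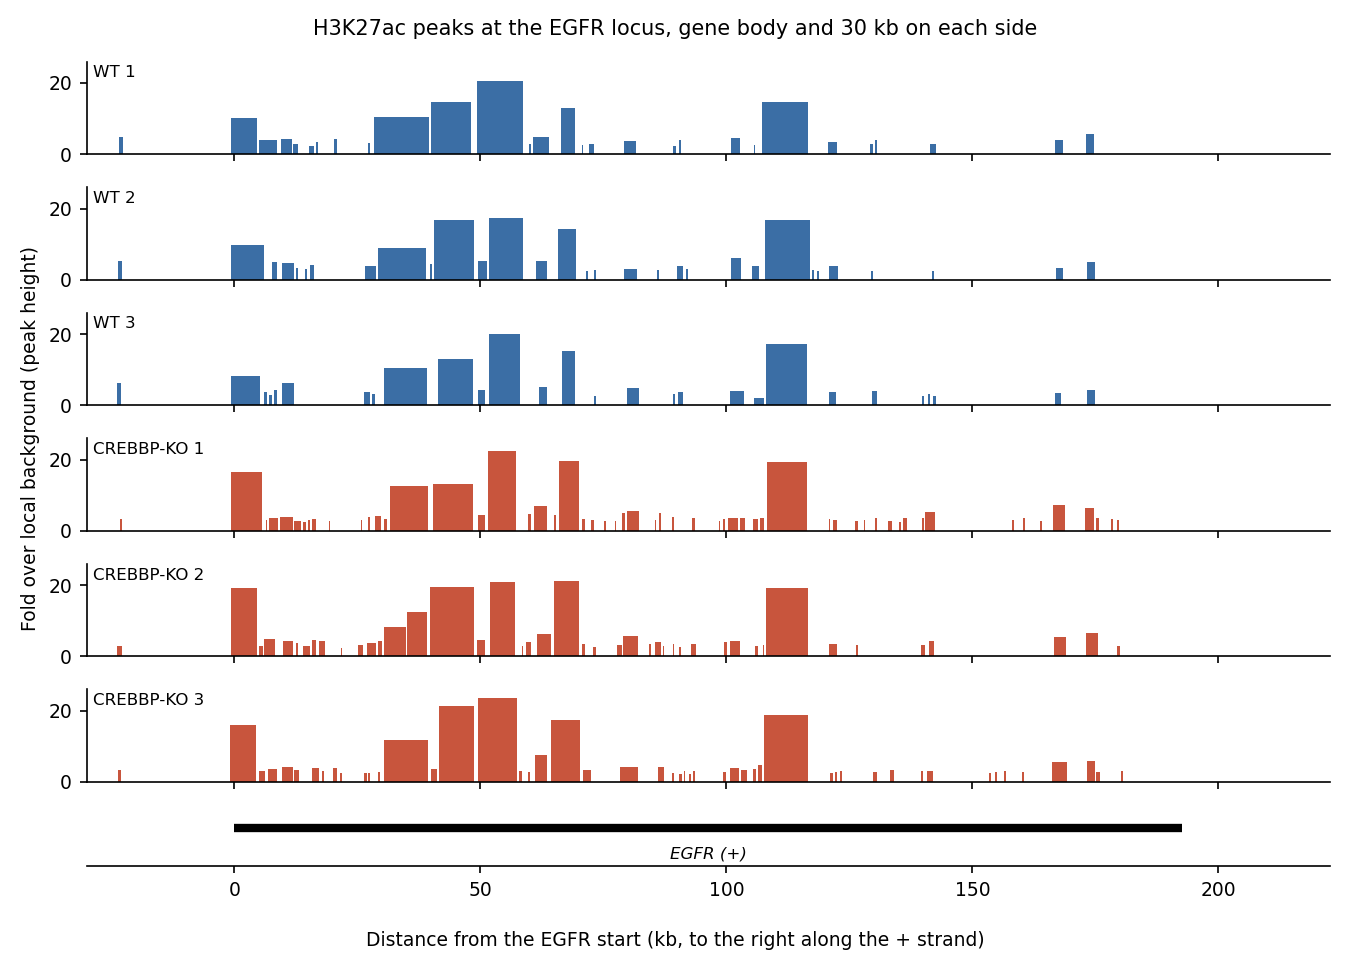
H3K27ac peaks at the EGFR locus in each library, as blocks whose height is the fold over local background (y axis) and whose width is the called peak, by distance from the EGFR start in kb (x axis); the black bar is the gene body. The promoter block at 0 kb was 8.37 to 10.2 high in WT (blue) and 16.0 to 19.3 in CREBBP-KO (red), while the intron 1 block near 55.3 kb was 17.3 to 23.7 high in all 6 libraries.

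ERBB2 (ENSG00000141736.14, chr17:39687914-39730426, plus strand) has several annotated starts, and a pair of them moved in opposite directions. At the canonical start, chr17:39699260-39702311, the fold was 9.65, 8.89 and 9.80 in WT and 17.8, 17.6 and 17.9 in CREBBP-KO. The 3 libraries of each genotype lay close together and the groups were far apart. The shift was 0.976 ± 0.167 (SE; adjusted p = 0.000163) and was past the threshold in all 14 alternatives. At the upstream start, chr17:39687388-39689590, 11.7 kb before it, the fold was 11.5, 10.7 and 10.5 in WT and 7.20, 10.5 and 8.26 in CREBBP-KO. The shift there was -0.581 ± 0.208 (SE; adjusted p = 0.0321), and it lost the threshold in 5 of 13 alternatives. Among these were the fits without the first WT library (-0.532), the second WT library (-0.583), the first CREBBP-KO library (-0.43) and the third CREBBP-KO library (-0.531). This interval also covers the start of PGAP3, a gene for a remodelling enzyme of membrane lipid anchors, and the signal of the opposing promoters cannot be separated. In WT the upstream interval was the higher of the pair in all 3 libraries, whereas in CREBBP-KO the canonical start was the higher in all 3. The highest distal interval of the locus, 54.7 kb from the start, lay at percentiles 88.5 to 92.2 in all 6 libraries (shift 0.00701, adjusted p = 0.979). GRB7, a neighbour of ERBB2 whose product is an adaptor that binds it, had only a weak promoter peak, with a fold between 3.60 and 4.40 in WT libraries and between 3.03 and 5.32 in CREBBP-KO libraries, which was not tested.

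At ERBB3 (ENSG00000065361.17, chr12:56076799-56103505, plus strand) the promoter was only weakly acetylated. The interval chr12:56079032-56080695 had a peak in all 6 libraries, with a fold of 4.24, 3.92 and 3.26 in WT and 4.01, 5.08 and 5.27 in CREBBP-KO. It did not reach the fold filter and was not tested by rank. Its percentiles did not overlap, at 24.0 to 49.4 in WT against 49.9 to 63.1 in CREBBP-KO (p = 0.1 in an exact permutation test). The folds overlapped, since that of the first CREBBP-KO library lay within the WT range. Stronger peaks of the locus belonged to its neighbours. The PA2G4 promoter, chr12:56103448-56108220, at the 3′ end of ERBB3, had a fold of 11.0, 8.99 and 10.9 in WT and 17.9, 17.2 and 17.9 in CREBBP-KO, a shift of 0.817 ± 0.171 (SE; adjusted p = 0.000954) that was past the threshold in all 13 alternatives. PA2G4 encodes a protein known for binding ERBB3. The promoter of ESYT1, a tether between endoplasmic reticulum and plasma membrane, was at 7.26, 6.47 and 7.50 in WT and 10.2, 11.1 and 10.7 in CREBBP-KO. Its shift of 0.686 ± 0.217 (SE; adjusted p = 0.0166) lost the threshold in 4 of 13 alternatives, among them without the second WT library (0.566) and without the second CREBBP-KO library (0.644). The highest distal interval, 25.1 kb upstream of ERBB3, had WT percentiles of 59.5 to 72.5 and CREBBP-KO percentiles of 78.4 to 81.1. Its shift of 0.584 did not pass the test (adjusted p = 0.0747), but it did in 3 of 13 alternatives, among them without the second WT library (0.731).

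EGF and TGFA, ligands on separate loci, had few called H3K27ac peaks. Over the 160.9 kb of the EGF locus (ENSG00000138798.13, chr4:109912883-110013766, plus strand) there was a single interval, chr4:109912741-109913490, on exon 1. It had a fold of 4.67, 5.43 and 4.62 in the CREBBP-KO libraries, at percentiles of 56.7 to 65.3, and no peak in any WT library. A peak list gives no value where no peak was called, so no fold between the groups can be given. TGFA (ENSG00000163235.16, chr2:70447284-70554193, minus strand) had no promoter peak in any library. Its intron 1 held the interval chr2:70523938-70525477, 29.0 kb inside the gene, with a fold of 4.71, 6.12 and 6.08 in CREBBP-KO and no peak in WT. The EGF and TGFA intervals were the only ones outside EGFR with a peak in all 3 CREBBP-KO and no WT library.

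The chromosome 4 cluster carried 39 intervals over 316.3 kb, and 1 of its 9 tested intervals ranked higher in CREBBP-KO and 2 lower. These are 11.1% and 22.2% of the 9, near the 18.6% and 18.7% of all tested intervals. EREG (ENSG00000124882.4, chr4:74365145-74388749, plus strand) lay in a broad interval of 19.2 kb, chr4:74361866-74381090. The highest fold in it was 7.68, 13.0 and 7.18 in WT and 10.1, 7.81 and 10.9 in CREBBP-KO, and the groups overlapped (shift -0.0148, 95% confidence interval -0.561 to 0.532; adjusted p = 0.971). Its highest summit lay 9.2 kb inside the gene, in intron 1. Of the peaks that reached the EREG start, those of the first WT library and the second WT library had their summit more than 1 kb away from it, whereas in the third WT library and in all 3 CREBBP-KO libraries the summit was within 1 kb.

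AREG (ENSG00000109321.11, chr4:74445136-74455005, plus strand), whose promoter holds the CRE shown above, had only a weak promoter peak. The interval chr4:74444624-74446154 had a fold of 4.11, 3.45 and 5.83 in WT and 3.35, 5.07 and 5.17 in CREBBP-KO, with overlapping groups (exact permutation test on percentiles, p = 1). More acetylation lay in the body of the gene, at chr4:74448610-74453769, with the summit in intron 4. There the fold was 5.26, 5.23 and 7.72 in WT and 8.60, 9.68 and 7.97 in CREBBP-KO. The shift of 0.768 ± 0.284 (SE) passed the test (adjusted p = 0.0371), although the normal scores of the groups overlapped, and it lost the threshold in 7 of 13 alternatives. It did so without each library in turn other than the third WT library, at shifts of 0.601 to 0.827. Beyond the gene, 28.5 kb from the AREG start at chr4:74471090-74475581, the direction was the opposite. This was the highest distal interval of the cluster over the 6 libraries together and in WT, though in CREBBP-KO the AREG body was higher on average. It had a fold of 12.2, 11.0 and 9.92 in WT and 8.49, 8.44 and 5.53 in CREBBP-KO, and all 3 CREBBP-KO libraries lay below all 3 WT libraries. The shift was -0.934 ± 0.254 (SE; adjusted p = 0.00655), and -0.575 (adjusted p = 0.0534) without the third CREBBP-KO library, the lowest. The interval 32.8 kb beyond the EREG start fell as well, from 6.86, 7.31 and 5.16 in WT to 4.92, 4.93 and 5.13 (shift -0.780 ± 0.294 SE; adjusted p = 0.0407), but it lost the threshold in 6 of 13 alternatives, among them without the first WT library (-0.618), the second WT library (-0.553), the first CREBBP-KO library (-0.846) and the second CREBBP-KO library (-0.802). The interval 32.8 kb beyond the EREG start passed the fold filter in WT alone, so the filter favoured a downward shift there. Between EREG and AREG, 26.3 kb before the AREG start, an interval that missed the filter had a fold of 7.24, 7.64 and 4.87 in WT and 5.03, 4.61 and 4.48 in CREBBP-KO, with overlap.

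BTC (ENSG00000174808.12, chr4:74744759-74794523, minus strand) had the highest promoter percentile of the members in WT. At chr4:74793572-74794901 the fold was 9.74, 14.1 and 13.7 in WT and 13.0, 11.7 and 12.5 in CREBBP-KO. The groups overlapped, with the first WT library the lowest of all 6 (shift -0.180 ± 0.198 SE; adjusted p = 0.493). A second BTC start, within the gene at chr4:74768329-74770453, had WT percentiles of 54.7 to 68.2 and CREBBP-KO percentiles of 68.6 to 77.0 (adjusted p = 0.390). It passed the fold filter in CREBBP-KO alone, and its normal scores overlapped. EPGN (ENSG00000182585.10, chr4:74308470-74316789, plus strand) had no promoter peak in any library. The distal intervals on either side of it, 24.7 kb upstream and 11.9 and 19.3 kb downstream of its start, had shifts of -0.532, 0.287 and -0.592, and none passed the test. Among the weak intervals of the cluster, 11 of the 39 had a peak in at least 1 WT and no CREBBP-KO library, and 5 the reverse. The shares over all merged intervals were 15.4% and 28.3%. Between the AREG and BTC windows, 229.8 kb that belong to neither gene, 5 intervals were tested, of which 0 ranked higher and 2 lower. Of all tested intervals 18.6% ranked higher and 18.7% lower, and 5 are too few to set against these shares.

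**Figure D3:**
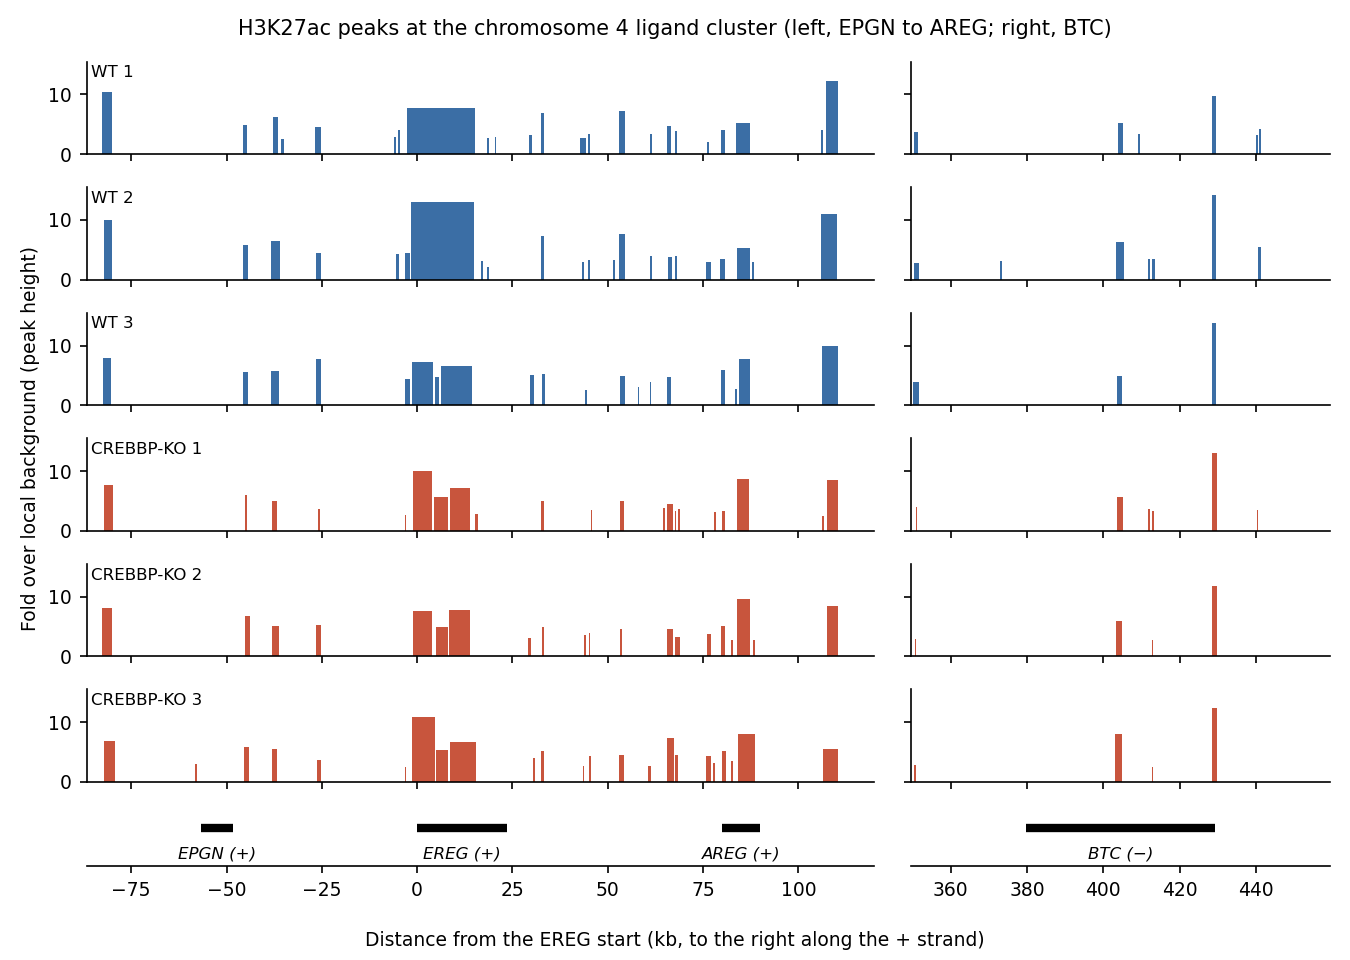
H3K27ac peaks at the chromosome 4 ligand cluster in each library, as blocks whose height is the fold over local background (y axis), by distance from the EREG start in kb (x axis), with EPGN, EREG and AREG on the left and BTC on the right; black bars are gene bodies. The block in the body of AREG was 5.23 to 7.72 high in WT (blue) and 7.97 to 9.68 in CREBBP-KO (red), and the block beyond AREG was 9.92 to 12.2 high in WT and 5.53 to 8.49 in CREBBP-KO.

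HBEGF (ENSG00000113070.8, chr5:140332843-140346603, minus strand), which encodes a heparin-binding ligand that is shed from the membrane, had a weakly acetylated promoter in WT. At chr5:140345195-140347093 the fold was 4.37, 3.91 and 5.79 in WT and 8.16, 6.79 and 6.82 in CREBBP-KO. All 3 CREBBP-KO libraries were above all 3 WT libraries, with percentiles of 52.6 ± 10.4 (SD, n = 3) and 75.5 ± 4.60 (SD, n = 3). Only CREBBP-KO passed the fold filter here, as the WT folds of 4.37 and 3.91 were below 5. The filter therefore favoured an upward shift, unlike at the EGFR promoter, which passed in both genotypes. The shift of 0.987 ± 0.308 (SE; adjusted p = 0.0153) was similar in size to that of the EGFR promoter but less secure: it lost the threshold without the second WT library (0.787, adjusted p = 0.0672), without the first CREBBP-KO library (0.794, adjusted p = 0.0867) and when promoters were ranked apart from other intervals (0.612, adjusted p = 0.1125). Downstream of HBEGF, the distal interval with the highest mean percentile over the 6 libraries, 23.3 kb from the start, had a fold of 10.6, 7.97 and 9.27 in WT and 10.6, 15.0 and 14.3 in CREBBP-KO (shift 0.497, adjusted p = 0.0557). It passed the test in 3 of 13 alternatives, among them without the first WT library (0.608) and without the first CREBBP-KO library (0.639). In WT the interval 34.6 kb from the start was the higher of the pair in all 3 libraries. It fell from 12.9, 10.0 and 11.1 to 10.4, 8.58 and 8.57, a shift of -0.512 ± 0.201 (SE; adjusted p = 0.0488) that was lost in 9 of 13 alternatives, among them without the first WT library (-0.391), the third WT library (-0.503), the second CREBBP-KO library (-0.436) and the third CREBBP-KO library (-0.433). The folds of the groups overlapped at 34.6 kb. At 23.3 kb the highest WT fold and the lowest CREBBP-KO fold were nearly equal, and the normal scores overlapped.

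Of the 7 tested intervals at member promoters, those of EGFR, HBEGF and the canonical ERBB2 start ranked higher, the upstream ERBB2 start ranked lower, and EREG and both BTC starts did not pass the test. Counted by gene, with the tested promoter interval of highest mean percentile for each, EGFR, ERBB2 and HBEGF ranked higher and EREG and BTC did not pass the test. The other members had no tested promoter interval. In the same count, 26.5% of all 11708 genes with a tested promoter interval ranked higher and 8.4% lower. By mean percentile, the WT promoters followed the order BTC (89.3), ERBB2 (86.2), EGFR (81.8), EREG (79.8), HBEGF (52.6), AREG (47.9) and ERBB3 (39.0). In that order BTC overlapped ERBB2, EGFR overlapped EREG, HBEGF overlapped AREG and AREG overlapped ERBB3, while the ranges of ERBB2 and EGFR, and of EREG and HBEGF, lay apart. In CREBBP-KO the order was ERBB2 (95.3), EGFR (94.8), BTC (88.9), EREG (82.6), HBEGF (75.5), EGF (60.7), ERBB3 (58.5) and AREG (52.1), and the neighbours whose ranges lay apart were EGFR and BTC, BTC and EREG, and HBEGF and EGF. For ERBB2 these are the percentiles of its highest start, which was the upstream start in WT. Exact permutation tests over the 7 promoters with a peak in all 6 libraries gave p = 0.1 for EGFR, ERBB2, ERBB3 and HBEGF, the smallest p that 3 against 3 allow, which is 0.175 after adjustment over the 7. They used raw percentiles, which run higher for the same fold in the CREBBP-KO lists, and the ERBB3 folds overlapped.

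The number of peaks called over the 7 loci was 81, 78 and 69 in WT and 119, 96 and 101 in CREBBP-KO (p = 0.1 in an exact permutation test). These made up 0.0801% to 0.0866% of the WT lists and 0.0914% to 0.107% of the longer CREBBP-KO lists. Of the mean difference of 29.3 peaks, EGFR held 21, with 29, 31 and 28 peaks in WT and 57, 44 and 50 in CREBBP-KO (exact permutation test, p = 0.1, or 0.233 adjusted over the 7 loci). The covered share of the EGFR locus moved less, from 27.8% ± 2.02 (SD, n = 3) to 33.0% ± 0.642 (SD, n = 3). Median peak width over the whole lists was 1093, 1140 and 1161 bp in WT and 800, 936 and 1114 bp in CREBBP-KO. A peak of the first WT library, 28.4 to 39.5 kb from the EGFR start, was split into several in the first CREBBP-KO library. The number of peaks is thus not a number of separate sites. When every list was shortened to its 86163 most significant peaks, the EGFR counts were 26, 28 and 28 in WT and 40, 38 and 36 in CREBBP-KO, still without overlap. Under a stricter list, of peaks whose -log10 q reached 5, they were 17, 20 and 17 in WT and 24, 23 and 19 in CREBBP-KO, with overlap (exact permutation test, p = 0.2), so most of the extra peaks were weak. The chromosome 4 cluster went the other way in covered length, at 48.9, 49.6 and 41.1 kb in WT and 36.7, 39.5 and 46.2 kb in CREBBP-KO, but the groups overlapped (exact permutation test, p = 0.2). At HBEGF peaks covered 10.4 ± 1.46 kb (SD, n = 3) in WT and 14.5 ± 0.943 kb (SD, n = 3) in CREBBP-KO, without overlap.

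The surroundings of each locus were measured to set these values against the chromosome they lie on. Within 1 Mb of EGFR, outside its window, 6 of 18 tested intervals ranked higher and 2 lower, with a median shift of 0.256. Over chromosome 7 the median was 0.00584, and 17.4% ranked higher and 19.8% lower. Near ERBB2 14 of 57 ranked higher and 4 lower, with a median of 0.178, close to the 0.161 of chromosome 17. These were 24.6% and 7.02%, beside 24.4% and 12% of chromosome 17. Around the chromosome 4 cluster 4 of 40 ranked higher and 10 lower, with a median of -0.281, and over chromosome 4 the median was -0.163. The 25% of intervals that ranked lower around the cluster stood near the 26.8% of chromosome 4, and within the cluster it was 22.2%. The shares that ranked higher were 10% around the cluster and 14.2% over chromosome 4. Near ERBB3 11 of 47 ranked higher and 10 lower (median 0.258), beside 16% and 19.2% of chromosome 12 (median -0.00282). Near HBEGF 6 of 34 ranked higher and 3 lower (median 0.141), beside 17.1% and 22.6% of chromosome 5 (median -0.0351).

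The other genes of the pathway were read from a list of 37. Of these, 33 had a tested promoter interval, of which 10 ranked higher in CREBBP-KO, 5 lower and 18 did not pass the test, beside the 26.5% higher and 8.4% lower of all genes with a tested promoter. The list had a median shift of 0.225 beside a median of 0.205 for all tested gene promoters. The largest upward shifts were at MAP2K2, the gene of the kinase MEK2 (1.34 ± 0.173 SE; adjusted p = 1.08e-05), and at CBL, whose product ubiquitinates activated EGFR (1.06 ± 0.228 SE; adjusted p = 0.00118). The largest downward shifts were at SHC1, an adaptor that links the receptors to RAS (-0.758 ± 0.173 SE; adjusted p = 0.00192), and at ARAF, a RAF kinase (-0.752 ± 0.177 SE; adjusted p = 0.00242). Among the 5 receptor inhibitors and ubiquitin ligases, CBL, CBLB and ERRFI1 ranked higher and LRIG1 and LRIG3 did not pass the test. Of the 7 adaptors GRB2 and PTPN11 ranked higher and SHC1 and GAB1 lower. Among the genes from RAS to ERK, MAP2K1 and MAP2K2 ranked higher and NRAS, ARAF and BRAF lower. Of the 4 sheddases and their regulators, ADAM10, which releases EGF and BTC from the membrane, ranked higher, and of the 6 PI3K and STAT genes STAT3 did. The receptor ERBB4 and the neuregulins NRG2, NRG3 and NRG4 had no tested promoter interval, whereas NRG1, a ligand of ERBB3, stood at a mean percentile of 77.2 in WT and 85.4 in CREBBP-KO (adjusted p = 0.182).

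Of 11707 other genes, those whose promoter scores lay closest to EGFR over the 6 libraries were ANKRD36C on chromosome 2, CDC34 on chromosome 19 and ATRN on chromosome 20, at Euclidean distances of 0.336, 0.386 and 0.388. None lies on chromosome 7, and the likeness is a description over 6 libraries.

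Motif letters were counted in the 300 bases around the highest summit of each tested interval. Of the 19 member intervals off promoters, 5 held TGANTCA, which is 26.3%, beside 11.4% of all 23277 such intervals on chromosomes 1 to 22, X and Y. Of the 13 at gene promoters 0 held it, beside 3.60% of 11570. GGAATG was found in 5 of the 19, or 26.3%, beside 16.3%, and GGGCGG in 4 of the 13, or 30.8%, beside 52.4%. TGACGTCA was in none of the 32 windows and in 0.198% of all. In the 11 RefSeq promoter sequences of the members, 300 bases each, TGACGTCA occurred only at AREG, 65 bases before the start, and 1.85% of all RefSeq promoters held it. The AP-1 letters were in the promoters of EGF, ERBB2 (upstream start) and the second EGFR start, 3 of 11, beside 7.71% of all RefSeq promoters. The summit windows of the 13 intervals at gene promoters, 6 of them at neighbouring genes, had a median GC content of 65.0%. All tested promoters had a median of 65.7%, and the 19 member intervals off promoters one of 45.7%. These are matches of letters and show no binding.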

How the data were processed

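The data are H3K27ac ChIP-seq peak lists (antibody Ab4729) of 6 libraries, 3 per genotype, grouped by title. The authors aligned reads to hg38 (BWA, per the submitters' processing notes) in the nf-core ChIP-seq pipeline and ran MACS2 on every library separately for narrow peaks. The deposited fold is a linear ratio of the summit over local background, and the deposited significance is -log10 p and -log10 q. The input used as control, and whether reads were downsampled before these lists were made, are not given in the sources used here. Without read counts the depth of each library is unknown, no counting interval was computed and the DiffBind test of the study was not repeated.

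Overlapping or touching peaks were merged over the 6 lists. Intervals with a fold of at least 5 in all 3 libraries of a genotype and a peak in all 6 were ranked by highest fold, and normal scores were fitted with limma (trend, Benjamini-Hochberg adjustment over all intervals, threshold 0.05). For single values an exact permutation test, two-sided, was used, and 3 against 3 cannot give a p below 0.1. A promoter was 1 kb either side of a protein-coding start (GENCODE release 44). The members, the pathway and marker lists and the tests were chosen with earlier results of these data known. Text names, at each locus, the member promoters, the highest distal interval, the largest non-overlapping distal shifts past the threshold and neighbouring promoters past it, the 3 promoters most like EGFR and the pathway genes past the threshold, of which 1 is not reported here. The upstream ERBB2 start, the AREG body, the interval beyond EREG, the further EGFR, EPGN and BTC intervals and all intervals that were not tested were added after their values were seen. The furthest peak on each of 24 chromosomes lay within hg38. The code was tested on simulated data. Alternatives to the filter, ranking, merging, list length, model and windows were tried. The tools were limma 3.58.1 in R 4.3.3, bedtools 2.31.1, and pandas 2.3.3, scipy 1.17.1, matplotlib 3.10.9 and numpy 2.4.6 in Python 3.11.15.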

Additional observations from a re-analysis of the deposited data

How the results depend on the processing

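The member intervals that passed the filter, 32 as reported, were 54 at a fold of at least 3, 18 at a fold of at least 10, 21 with a flank of 10 kb and 61 with a flank of 100 kb. Of these, 100% had a peak in every library as reported, 85.2% at a fold of at least 3 and 92.3% with summit windows. The 7 higher intervals became 4 at a fold of at least 10 and 11 with a flank of 100 kb. The 4 lower intervals became 2 under a minimum fold of 10, 2 when ranked by -log10 p, 2 with a flank of 10 kb and 10 with a flank of 100 kb. Leaving out a library in turn gave 5 to 8 higher and 1 to 5 lower intervals. Over the genome, the 6472 higher and 6533 lower intervals became 3426 and 3295 under a minimum fold of 10. The extra peaks of CREBBP-KO over the loci numbered 29.3 as reported, 12.3 in lists of equal length and 6.67 with a -log10 q of at least 5, where the groups overlapped. Small locus differences changed sign when a library was left out: the difference in peaks at the chromosome 4 cluster, -0.667 as reported, ranged from -3 (without the third WT library) to 0.5 (without the first or the second WT library) and was 0.333 without the second CREBBP-KO library, and that in the covered share of ERBB2, 1.03 points as reported, ranged from -0.227 (without the first CREBBP-KO library) to 1.91. The cause was not tested.

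Same-numbered WT and CREBBP-KO libraries shared only a number, with correlations of their deviations of 0.0108, 0.0144 and 0.0284. With the replicate number as a block, 7 member intervals ranked higher and 4 lower, as without it, and 10 and 5 pathway promoters. The calls at the promoters of EGFR, ERBB2 (canonical start) and PA2G4 held in every alternative run. As the lists give no depth, a peak that was not called cannot be told from a region below the caller's threshold.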
